A study of Mus musculus with 79 samples.

Results

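The mitochondrial chaperones and proteases examined here were 9 genes: the chaperones Hspd1, Hspe1 and Hspa9, and the protease genes Clpp, Clpx, Lonp1, Yme1l1, Spg7 and Afg3l2. All 9 were among the 22335 gene symbols of the array, and they held 11 of its 35556 probesets, because Hspd1 and Hspe1 had 2 each. Where a gene had more than 1 probeset, the brightest on average represented it, and the remaining probeset of Hspd1 and of Hspe1 is given beside it. Quadriceps RNA came from male mice of the BXD family, inbred lines derived from C57BL/6J and DBA/2J, and from both of those parental strains. The chow diet (CD, Harlan 2018) group held 42 arrays, and the high fat diet (HFD, Harlan 06414) group held 37. All mice were 29 weeks old and had fasted overnight, and HFD had begun at 8 weeks. Each array carried a pool of about 5 animals of 1 strain on 1 diet, so the strain is the replicate and variation among individual mice cannot be seen. The 42 strains were 40 BXD lines and both parents, and 37 of them had an array on each diet.

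Mitochondrial proteins are mostly made in the cytosol and are threaded into the organelle unfolded. Hspa9 encodes the matrix HSP70 that pulls precursors inward, and Hspd1 and Hspe1 encode the barrel and the lid of the chaperonin in which many of them fold. Clpp is the proteolytic core and Clpx the unfoldase of the same matrix protease, Lonp1 is a second matrix protease that removes oxidised and misfolded proteins, and Yme1l1, Spg7 and Afg3l2 are AAA metalloproteases of the inner membrane. Yme1l1 faces the intermembrane space, whereas Afg3l2 forms matrix-facing complexes alone or with Spg7. When misfolded proteins build up in the matrix, cells can raise the transcription of several of these genes together, a programme known as the mitochondrial unfolded protein response. Skeletal muscle is rich in mitochondria, and these genes are expressed there at rest. In a bulk sample, fewer cells of a type and less RNA per cell cannot be told apart.

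Hspd1 and Hspe1 lie head to head and share the DNA between them. In the RefSeq annotation of GRCm38.p6, the start of Hspe1 on the plus strand of chromosome 1 and the nearer start of Hspd1 on the minus strand were 215 bases apart. A longer Hspd1 transcript began further out and overlapped Hspe1 by 96 bases. The stretch below, chr1:55088053-55088082 on the plus strand, is shown because it holds every match to the searched motifs between the starts. Capitals mark the overlapping matches to the heat shock units TTCNNGAA and GAANNTTC.
Hspd1-Hspe1: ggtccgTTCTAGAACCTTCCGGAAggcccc
The capitals form a run of 18 bases with 2 matches to TTCNNGAA and 1 to GAANNTTC, each of which reads the same on both strands. The run ended 72 bases before the start of Hspe1 and began 127 bases before that of Hspd1. Of 32851 RefSeq promoter windows, each 300 bases long around a gene's start, 8.52% held TTCNNGAA and 7.86% held GAANNTTC. Windows were found for 7 of the members, and not for Hspa9 and Afg3l2. Clpp had 1 match to TTCNNGAA, and Yme1l1, Spg7, Clpx and Lonp1 had none to either unit. CCAAT, found in 37.4% of all windows on either strand, was present once each in the windows of Yme1l1, Clpx and the longer Hspd1 transcript. TGATGNAA, an element of the C/EBP and ATF type held by 3.97% of windows, was in none of the 8 member windows. These matches describe the sequence and say nothing of a factor's binding.

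The probesets of the chaperonin pair need care, because RefSeq lists 23 pseudogenes named after Hspd1 and 7 named after Hspe1. The highest-mean probeset of Hspd1 is numbered between those of Nudcd2 and Gabrb2 on chromosome 11, and the pseudogene Hspd1-ps3 lies between the same 2 genes. The other Hspd1 probeset is numbered beside Coq10b, the neighbour of the functional gene on chromosome 1. For Hspe1 the highest-mean probeset is the one numbered among chromosome 1 probesets. The probesets of each gene moved together over strains. Pearson r between the 2 Hspd1 probesets was 0.874 in CD and 0.834 in HFD, and between those of Hspe1 it was 0.982 and 0.974 (permutation p 1e-05 in all 4 cases, the smallest that 100000 draws can give, batch means removed). Signal from processed copies could not be separated from that of the genes, so both probesets are reported.

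Values are scores without a stated log base, scaled so that each array averages 8.0 with an SD of 2.0 units over all probesets. Array medians ran from 7.783 to 7.922. All 9 members were bright, between the 79.3 and the 97.6 percentile of mean score. RNA extraction and array runs were made in 2 sets, called batch 1 (18 CD and 17 HFD arrays) and batch 2 (24 and 20). Strain BXD63 stood apart: over 1154 olfactory receptor probesets its diet profile correlated at -0.537 with the mean of the other strains, whose own values lay between 0.421 and 0.649 across probesets. Results are therefore also given without it. The defining muscle genes were high on every array, with a list mean between 14.5 and 14.68 in CD and between 14.47 and 14.77 in HFD. The adipocyte list was the marker list that moved most with diet: 7 of its 10 genes were higher and 1 was lower in HFD, and its mean score ran from 9.19 to 10.75 in CD and from 9.31 to 10.85 in HFD. In the macrophage list 4 of 6 genes rose, with list means from 8.39 to 9.2 in CD and from 8.51 to 9.56 in HFD. In the endothelial list 3 of 5 rose, with list means from 9.8 to 10.57 and from 10.1 to 10.65, and with the olfactory mean as covariate 0 did. Of all probesets 18.9% were called higher in HFD. The adipocyte genes stood between the 58.8 (Thrsp) and 97.9 (Fabp4) percentile of mean score, and the part of these cells in the differences below was not tested.

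In the main fit, which did not pair arrays by strain, Hspd1 was higher in HFD and no other member was called. With strain as a replicate block Spg7 was called as well. The score of Hspd1 ran from 11.26 (BXD61) through a median of 11.53 to 11.88 (BXD92a) in CD, and from 11.36 (BXD62) through 11.67 to 12.04 (BXD65) in HFD. The groups overlapped broadly, but 30 of 37 strains were higher in HFD than in CD. The difference, HFD minus CD, was 0.141 units with an SE of 0.0365 (limma with diet and batch as terms, Benjamini-Hochberg adjusted over all probesets, p 0.00122). Means were 11.53 ± 0.159 (SD, n = 42) and 11.67 ± 0.163 (SD, n = 37). The chromosome 1 probeset of Hspd1 gave a larger value of 0.226 units (SE 0.0489, limma adjusted p 0.000117), with 33 of 37 strains higher in HFD. It ran from 10.42 (BXD60) through 11.07 to 11.64 (BXD65) in CD and from 10.92 (BXD87) through 11.23 to 11.75 (BXD69) in HFD. For the highest-mean probeset the difference was 0.144 units in batch 1 alone, where the limma adjusted p was 0.17, and 0.14 units in batch 2 alone (limma adjusted p 0.00449). Without BXD63 it was 0.144 units (limma adjusted p 0.00116).

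**Figure D1:**
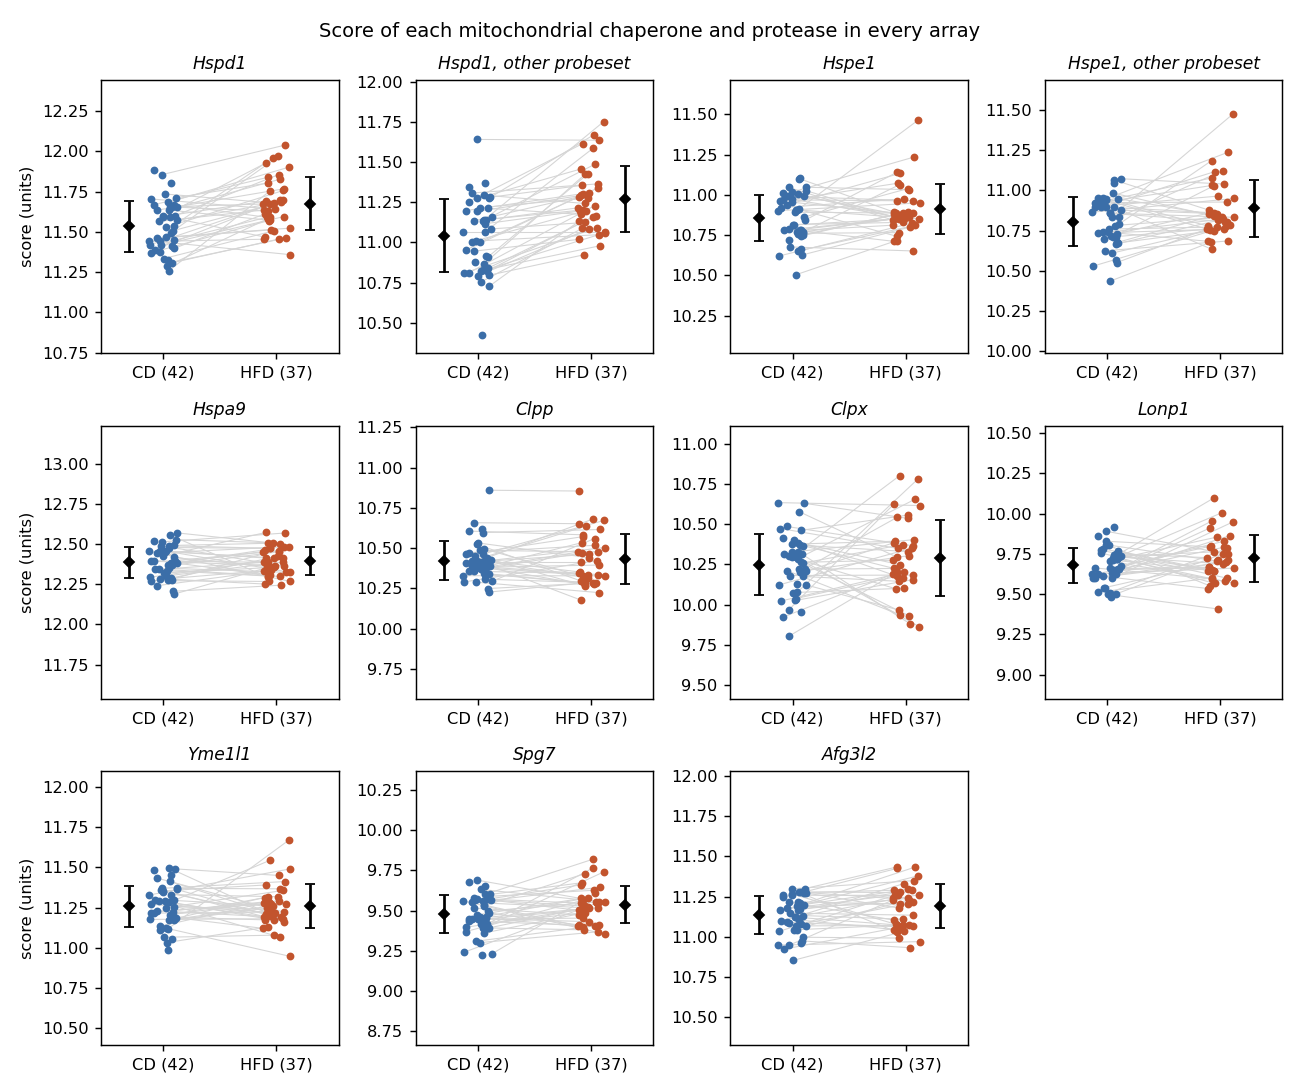
Score of each member in every array, by diet, with the other probesets of Hspd1 and Hspe1 in panels of their own; each point is an array (42 CD, 37 HFD), grey lines join the arrays of a strain, diamonds and bars give the mean and SD, and each vertical axis spans the same number of score units. Points of Hspd1 sit higher in HFD, while the clouds of the other members lie at nearly the same height on both diets.

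The partner of Hspd1 in the chaperonin, Hspe1, stood 0.053 units higher in HFD, with an SE of 0.0341 and a limma adjusted p of 0.219. Its scores ran from 10.5 (BXD90) through 10.88 to 11.1 (BXD95) in CD and from 10.65 (BXD80) through 10.87 to 11.47 (BXD69) in HFD. BXD69 on HFD lay above every other array, and 22 of 37 strains were higher in HFD. The other Hspe1 probeset gave 0.083 units (limma adjusted p 0.0694). Hspa9, the import motor, was the most even member across arrays. It ran from 12.19 through 12.38 to 12.57 in CD and from 12.24 through 12.39 to 12.57 in HFD, with a difference of 0.007 units, a 95% interval of -0.036 to 0.05 and 18 of 37 strains higher in HFD.

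Among the matrix proteases, Lonp1 differed by 0.042 units (95% interval -0.016 to 0.1, limma adjusted p 0.26), Clpp by 0.008 units (-0.055 to 0.07, limma adjusted p 0.874) and Clpx by 0.045 units (-0.05 to 0.139, limma adjusted p 0.487). Clpx had the widest per-strain differences of the members, from -0.44 in BXD100 to 0.71 in BXD69, with an SD of 0.271 over strains. Of the inner membrane proteases, Spg7 differed by 0.058 units (0.005 to 0.112, limma adjusted p 0.0788), Afg3l2 by 0.054 units (-0.003 to 0.112, limma adjusted p 0.131) and Yme1l1 by 0.004 units (-0.056 to 0.064, limma adjusted p 0.929). Spg7 was the nearest to a call. With strain as a replicate block its difference was 0.0671 units and its limma adjusted p 0.0221, which brought the members called to 2. Median centring of the arrays did the same (0.0751 units, limma adjusted p 0.0388).

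In all, 1 of 9 members was called, in the direction of HFD. At the same threshold 38.1% of all probesets were called in either direction and 18.9% as higher in HFD, and among 6520 probesets within the members' range of mean score 17.2% were called higher. The count for the members was therefore no larger than the background. Their median difference was 0.045 units against 0.0104 for probesets of that range and -0.0007 for all probesets.

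**Figure D2:**
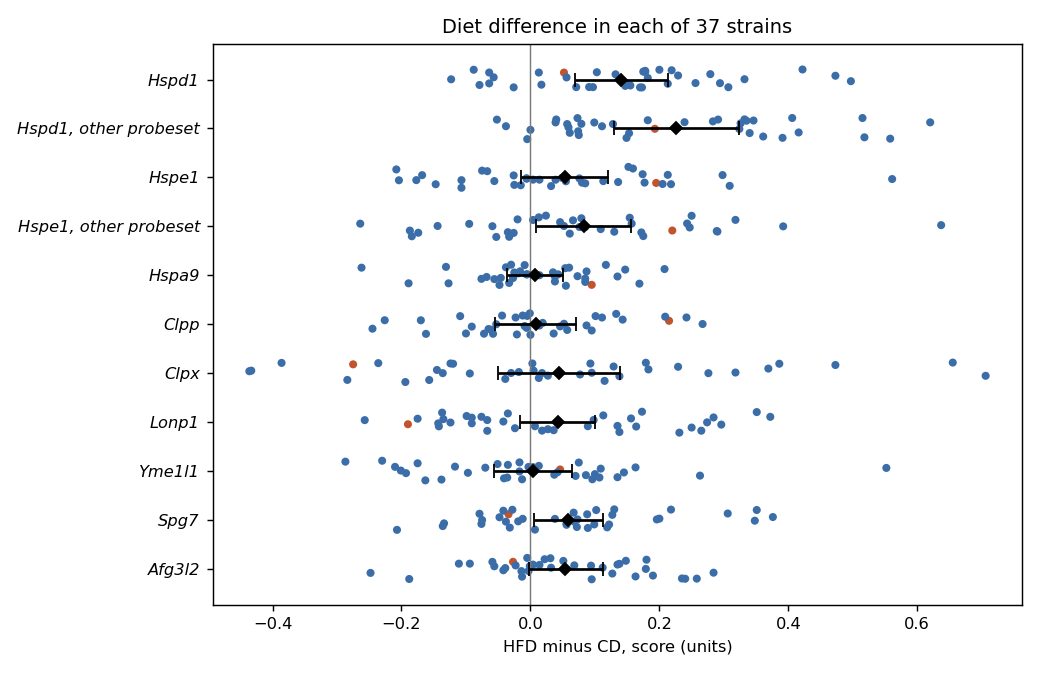
Diet difference (HFD minus CD, score units) of each member; each point is 1 of 37 strains with BXD63 in orange, and diamonds with bars give the limma estimate with its 95% interval from all 79 arrays. The intervals of both Hspd1 probesets, 0.069 to 0.214 and 0.129 to 0.323, lie above 0.

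Whether Hspd1 differed from its fellow members was asked directly, in a comparison added after these values were seen. For each of 36 pairs of members the diet differences of the 37 strains were subtracted and their signs exchanged at random. Adjusted over the 36 pairs, 7 were called and all 7 involved Hspd1. Its diet difference exceeded that of Hspe1 by 0.092 ± 0.17 units (SD over strains, permutation test, adjusted p 0.0156, higher in 26 of 37 strains) and that of Hspa9 by 0.136 ± 0.144 units (permutation test, adjusted p 0.00036, 28 of 37). Against Clpx the excess was 0.108 ± 0.282 units and was not called (permutation test, adjusted p 0.088). With the chromosome 1 probeset of Hspd1, all 8 pairs with Hspd1 were called. Using only the 29 strains whose arrays shared a batch, 7 pairs with Hspd1 were again called. Without BXD63 there were 9 calls, 7 of them with Hspd1.

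Single strains differed widely in how the members moved together. All 9 members were higher in HFD in 3 strains, BXD44, BXD66 and BXD69, and none was in BXD73. BXD69 and BXD73 had their CD array in batch 1 and their HFD array in batch 2, and BXD100, the lowest for Clpx, the reverse, so that in these strains diet and batch cannot be told apart. BXD69 had the highest difference of all paired strains for Hspe1 (0.56 units), Hspa9 (0.21), Clpx (0.71) and Yme1l1 (0.55), and BXD61 for Hspd1 (0.5) and Lonp1 (0.37). With 1 array per strain and diet, the diet difference of a single strain had no replicate.

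Over the 9 representing probesets the strain range was a nominal 1.26- to 1.92-fold, taking the score as a log2 value. Hspa9 had the narrowest range, 0.38 units in CD and 0.33 in HFD, and Clpx the widest, 0.83 and 0.94. Clpp was set apart by BXD81, which had the highest score on both diets, 10.86 in CD and 10.86 in HFD against medians of 10.41 and 10.41. Scores of Clpp in the remaining strains started at 10.23 (BXD87) in CD and 10.18 (BXD48) in HFD. For Clpx both parents were the lowest CD arrays, C57BL/6J at 9.8 and DBA/2J at 9.92, whereas in HFD they stood at 10.19 and 10.2, near the median of 10.28. Lonp1 ran from 9.48 through 9.67 to 9.92 in CD and from 9.41 through 9.71 to 10.1 in HFD. Yme1l1 ran from 10.99 through 11.25 to 11.5 and from 10.95 through 11.24 to 11.67. Spg7 ran from 9.22 through 9.47 to 9.69 and from 9.35 through 9.52 to 9.82, and Afg3l2 from 10.85 through 11.16 to 11.3 and from 10.93 through 11.21 to 11.43. BXD97 had the highest Afg3l2 score on both diets.

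To ask whether strains kept their levels over both diets, a moderated F test of all strain terms was fitted to the 74 arrays of the 37 paired strains. Clpp (F 3.69, limma adjusted p 0.00142), Afg3l2 (F 2.85, limma adjusted p 0.0122) and Hspd1 (F 2.81, limma adjusted p 0.0133) were called. The chromosome 1 probeset of Hspd1 gave an F of 3.96 (limma adjusted p 0.000727). Hspe1, with a limma adjusted p of 0.0532, and Hspa9, with 0.0867, fell short, and Clpx, Lonp1, Yme1l1 and Spg7 lay between 0.262 and 0.647. These 3 of 9 members compare with 13.6% of all probesets and with 30.8% of probesets in the members' range of mean score. Within a batch the calls were fewer. Among strains with both arrays in batch 1 no member was called, and in batch 2 Clpp alone was (limma adjusted p 0.0365). F in batch 1 (12 strains) was 4.26 for Clpp, 3.73 for Afg3l2 and 4.66 for Hspd1. The limma adjusted p were 0.0748, 0.101 and 0.0607. In batch 2 (17 strains) F was 4.32 for Clpp, 2.46 for Afg3l2 and 2.12 for Hspd1. F values from different numbers of strains cannot be ranked against each other.

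Each member was also correlated with itself between diets, over 37 strains with batch means removed. All relations between members and lists described up to the stress lists were adjusted together, 153 in number. Clpp correlated at r 0.643 (rho 0.531, permutation test, adjusted p 0.00068), Afg3l2 at 0.539 (rho 0.51, 0.00405), Hspd1 at 0.513 (rho 0.491, 0.00665), Hspa9 at 0.462 (rho 0.471, 0.0171) and Hspe1 at 0.405 (rho 0.475, 0.0327). Strains high for these genes on CD thus tended to be high on HFD. The share of all probesets with such a relation was not computed. The strain F test, which also compares strains over both diets, called 30.8% of probesets in the members' range of mean score. In batch 1 (12 strains) and batch 2 (17 strains) r was 0.753 and 0.699 for Clpp, 0.735 and 0.508 for Afg3l2, 0.704 and 0.439 for Hspd1, 0.638 and 0.773 for Hspa9 and 0.659 and 0.392 for Hspe1. The Clpp value was 0.509 without BXD81. Without the 2 strains farthest from the median, 4 of the 5 relations were called, and that of Hspe1 was not, with r 0.343 (adjusted p 0.101). In this check, here and below, distance was taken on 1 of the 2 values alone. That was the CD score here and the member's score for a list. For a pair it was the member named earlier in the opening gene list. Strains extreme in the other value alone were kept. Lonp1 was at r 0.03, and it was 0.303 in batch 1 and -0.386 in batch 2. Clpx, Yme1l1 and Spg7 were at 0.211, 0.217 and 0.232 and were not called.

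Between the parents no member was called by limma (C57BL/6J minus DBA/2J), where 1.26% of all probesets were, and 1 member had an unadjusted p below 0.05. That was Afg3l2, at -0.25 units (SE 0.0929, limma adjusted p 0.296). It stood at 10.95 in C57BL/6J and 11.25 in DBA/2J on CD and at 11.23 and 11.42 on HFD.

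Members covaried positively over strains in many pairs, and few of the called pairs held Clpp. In CD 16 of 36 pairs were called and in HFD 22 of 36, all with positive r. The median r over the 36 pairs was 0.321 in CD and 0.419 in HFD. Among all pairs of 4495 genes in the same range of mean score the median r was 0.045 and 0.055, and 12.2% and 7.96% of those pairs reached the members' medians. Genes of an array share its RNA, its hybridization and its scaling. Median centring of the arrays gave 23 and 29 called pairs, and repeated quantile normalization 11 and 14. Batch 1 alone gave 7 in CD and 4 in HFD, and batch 2 alone 2 and 11.

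**Figure D3:**
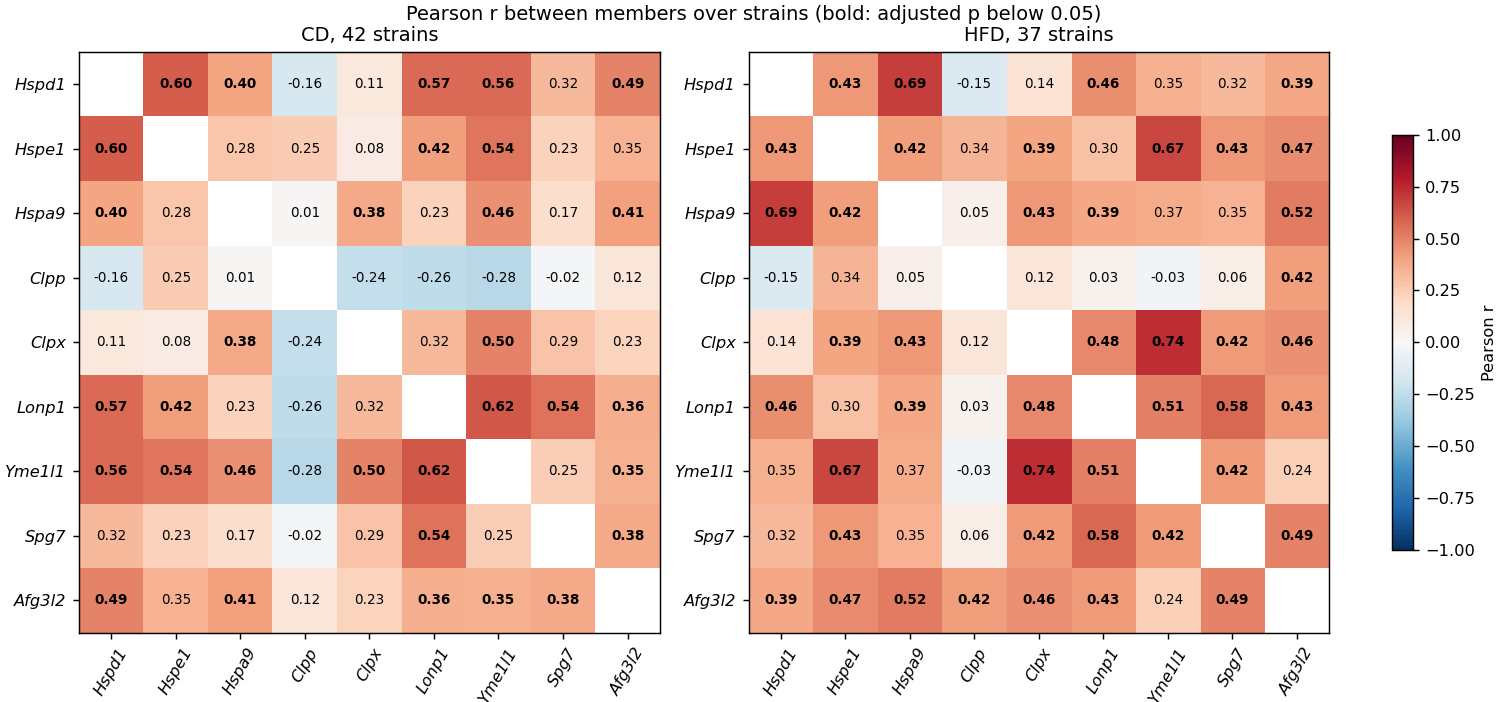
Pearson r between members over strains in CD (left, 42 strains) and HFD (right, 37 strains), with batch means removed and bold figures for pairs with an adjusted p below 0.05. Positive r fills both squares apart from the row and column of Clpp, which runs from -0.275 to 0.251 in CD and from -0.148 to 0.419 in HFD.

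The chaperonin pair Hspd1 and Hspe1, which share the promoter stretch shown above, correlated at r 0.604 in CD (rho 0.585, permutation test, adjusted p 0.000835), with 0.712 in batch 1 and 0.5 in batch 2. In HFD r was 0.433 (rho 0.357, permutation test, adjusted p 0.0239), with 0.234 and 0.716 in the batches, and the call was lost without the 2 farthest strains (adjusted p 0.0612) and with rho (0.0674). With the chromosome 1 probeset of Hspd1 it was 0.605 in CD and 0.694 in HFD (permutation test, adjusted p 0.000306). Set against the chromosome 1 probesets of the pair, 51 of 22333 other genes were as highly correlated with Hspd1 as Hspe1 was in CD, and 10 were in HFD. With the highest-mean Hspd1 probeset these counts were 83 and 493. These ranks are a description across genes, which are not independent.

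Hspd1 and Hspa9, folding chamber and import motor, correlated at 0.398 in CD (rho 0.415, permutation test, adjusted p 0.027) and at 0.689 in HFD (rho 0.657, permutation test, adjusted p 0.000382). Within batches r was 0.394 and 0.422 in CD and 0.782 and 0.584 in HFD. In CD r was 0.288 without the 2 farthest strains and the call was lost (adjusted p 0.148). Whether the diets differed in r was not tested.

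Among proteases, Yme1l1 was called with both Lonp1 and Clpx on each diet. It correlated with Lonp1 at 0.621 in CD (rho 0.622, permutation test, adjusted p 0.000612, batches 0.707 and 0.523) and at 0.505 in HFD (rho 0.384, permutation test, adjusted p 0.0095, batches 0.576 and 0.419). With Clpx it reached 0.499 in CD (rho 0.487, permutation test, adjusted p 0.00497) and 0.739 in HFD (rho 0.68, permutation test, adjusted p 0.000382, batches 0.849 and 0.642). The relation of Yme1l1 with Hspe1 was 0.537 in CD (rho 0.526, permutation test, adjusted p 0.00239) and 0.669 in HFD (rho 0.631, permutation test, adjusted p 0.00068), and the HFD value was 0.529 without BXD69. Lonp1 with Spg7 stood at 0.544 in CD (rho 0.488, permutation test, adjusted p 0.00224, batches 0.785 and 0.219) and 0.578 in HFD (rho 0.423, permutation test, adjusted p 0.00197, batches 0.645 and 0.487). All of these were also called without the 2 farthest strains, but with rho the call of Yme1l1 with Lonp1 in HFD was lost (adjusted p 0.0506). The matrix-facing partners Spg7 and Afg3l2 correlated at 0.382 in CD (rho 0.456, permutation test, adjusted p 0.0327, batches 0.446 and 0.327) and 0.494 in HFD (rho 0.522, permutation test, adjusted p 0.00964, batches 0.439 and 0.558). In CD that call was lost without the 2 farthest strains (adjusted p 0.0717).

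Clpp and Clpx, which form 1 protease, were not a called pair. Their r was -0.241 in CD (rho -0.171, permutation test, adjusted p 0.186) and 0.12 in HFD (rho 0.118, permutation test, adjusted p 0.562). In CD batches it was -0.428 and -0.083, and in HFD -0.305 and 0.435. No pair with Clpp was called in CD, but without the 2 farthest strains Clpp with Lonp1 was, at r -0.391 (permutation test, adjusted p 0.0424). In HFD Clpp was called with Afg3l2 alone, at r 0.419 (rho 0.356, permutation test, adjusted p 0.0279). That call was lost without the 2 farthest strains (adjusted p 0.0834) and with rho (0.0677). The per-strain diet differences of Clpp were called with those of 4 members: Hspe1, at r 0.549 (rho 0.541, permutation test, adjusted p 0.00374, batches 0.319 and 0.531), Afg3l2 (0.477, adjusted p 0.0124), Spg7 (0.434, 0.0241) and Yme1l1 (0.403, 0.0352). For Afg3l2 the sign differed between batches, with r -0.31 in batch 1 and 0.676 in batch 2. For Spg7 r was 0.284 and 0.457, and for Yme1l1 0.251 and 0.372. With rho, Spg7 (adjusted p 0.295) and Yme1l1 (0.0884) lost their calls. Of the 36 pairs, 15 were called for such differences, led by Clpx with Yme1l1 at r 0.672 (rho 0.582, permutation test, adjusted p 0.000382, batches 0.261 and 0.679). Their median r was 0.362, against 0.086 over all pairs of genes in the same range of mean score, of which 14.5% reached the members' median. That count was 33 after median centring and 7 after repeated quantile normalization.

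Hspa9, Hspd1, Afg3l2 and Spg7 were called with the respiratory chain, the electron transport and ATP synthesis machinery, on both diets. Hspa9 correlated with the mean score of 21 respiratory chain genes at r 0.515 in CD (rho 0.495, permutation test, adjusted p 0.00437, batches 0.625 and 0.432) and at 0.841 in HFD (rho 0.842, permutation test, adjusted p 0.000382, batches 0.84 and 0.851). Leaving out any strain kept the HFD value between 0.825 and 0.87. Hspd1 stood at 0.452 in CD (rho 0.446, permutation test, adjusted p 0.0124), where batch 2 alone gave 0.158, and at 0.632 in HFD (rho 0.617, permutation test, adjusted p 0.00068). Afg3l2 stood at 0.589 (rho 0.579, permutation test, adjusted p 0.00068) and 0.561 (rho 0.578, permutation test, adjusted p 0.00279), and Spg7 at 0.411 (rho 0.445, permutation test, adjusted p 0.0229) and 0.447 (rho 0.459, permutation test, adjusted p 0.0205). Hspe1 was not called in CD, at 0.312 (rho 0.312, permutation test, adjusted p 0.0792), and was in HFD, at 0.447 (rho 0.435, permutation test, adjusted p 0.0178). Without the 2 farthest strains the calls of Hspd1 in CD (adjusted p 0.0686), Hspe1 in HFD (0.058) and Spg7 in HFD (0.0686) were lost. Clpp, Clpx, Lonp1 and Yme1l1 were called in neither diet, with r between -0.022 and 0.331. The share of other genes called with this list mean was not computed, so these counts have no background beside them. With the mean of 9 slow fibre genes, Hspa9 in CD was the sole called relation, at r 0.393 (rho 0.393, permutation test, adjusted p 0.0307). Without the 2 farthest strains its adjusted p was 0.114. In that setting Hspa9 in HFD (r 0.511, permutation test, adjusted p 0.0155) and Clpp in CD (0.393, 0.0424) were called instead.

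**Figure D4:**
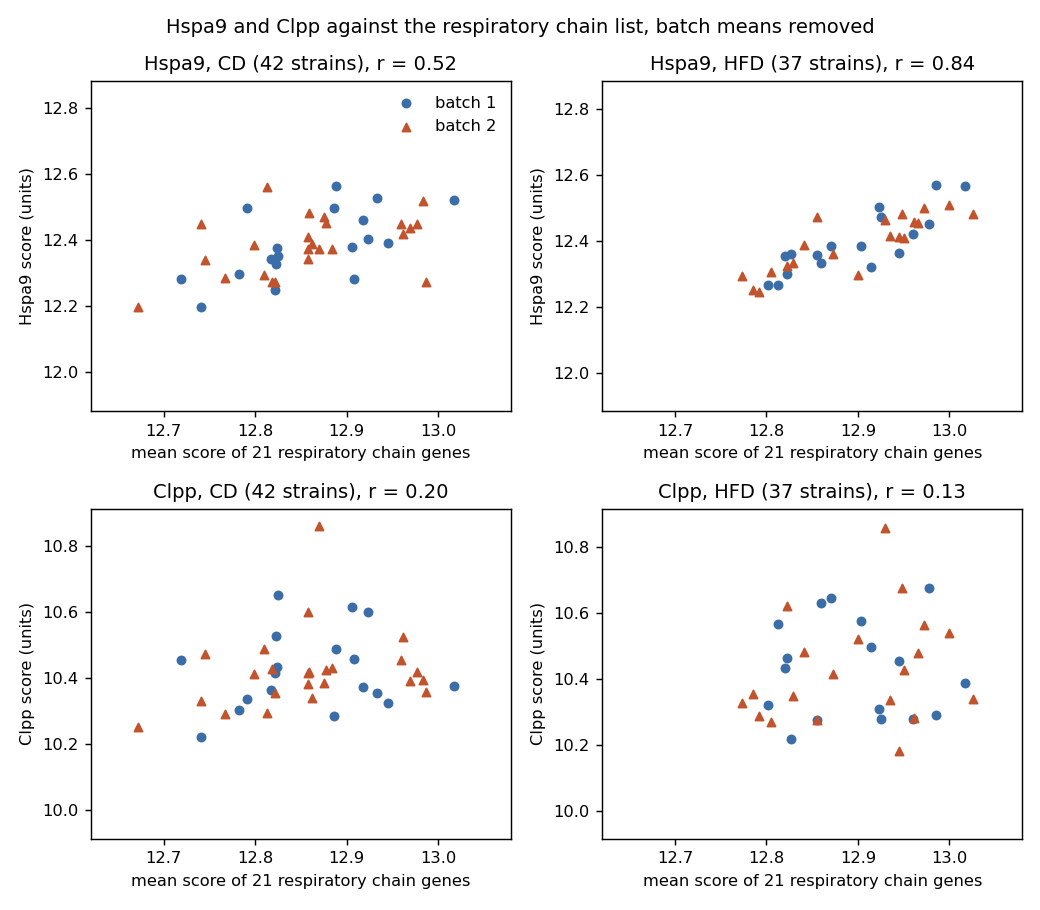
Score of Hspa9 (top) and Clpp (bottom) against the mean score of 21 respiratory chain genes in CD (left, 42 strains) and HFD (right, 37 strains); each point is an array with batch means removed, circles for batch 1 and triangles for batch 2, and the genes were chosen after their r were seen. Hspa9 climbs with the list, with r 0.515 and 0.841, and Clpp forms a diffuse cloud, with r 0.2 and 0.131.

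The genes most like each member over both diets are given with their r in CD and HFD, as a description over 42 and 37 strains among 22334 other genes. For Hspd1 they were Sucla2 (0.729 and 0.775), Wipi2 (0.728 and 0.75) and Dld (0.749 and 0.716), of which Sucla2 and Dld encode enzymes of matrix metabolism. For Hspa9 they were Etfdh (0.613 and 0.733), Ndufs1 (0.587 and 0.797) and Hsdl2 (0.571 and 0.792), and Etfdh and Ndufs1 act in electron transfer. Afg3l2 had Hsd17b4 (0.837 and 0.718), the mitochondrial elongation factor gene Gfm2 (0.689 and 0.701) and Dlst (0.659 and 0.653). Spg7 also had Gfm2 (0.578 and 0.662), with Guf1 (0.626 and 0.56) and the mitochondrial ribosome gene Mrps33 (0.554 and 0.574).

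For Clpx the nearest were the splicing kinase Clk1 (0.85 and 0.824), Tbc1d15 (0.786 and 0.818) and BC005537 (0.767 and 0.821). Yme1l1 had the translation factor Eif2s1 (0.824 and 0.826), Cul5 (0.81 and 0.862) and the nuclear import receptor Ipo7 (0.79 and 0.891). Hspe1 had Nae1 (0.715 and 0.707), Gm15542 (0.696 and 0.778) and Fam63b (0.674 and 0.739), and Lonp1 had Clcn4-2 (0.784 and 0.756), Eif4h (0.698 and 0.677) and D030074E01Rik (0.749 and 0.674). Clpp had the lowest values, with Tpd52l2 (0.501 and 0.526), Mcee (0.528 and 0.481) and Nudt22 (0.476 and 0.461). Over all other genes the share with r of at least 0.5 was 0.07% in CD and 0.56% in HFD for Clpp, and 1.79% and 5.79% for Clpx.

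Genes called among the regulators of the mitochondrial unfolded protein response and among integrated stress response targets lay in both directions. Of 10 regulators, 3 were higher in HFD and 2 lower, with a list median of 0.001 units, against 38.1% of all probesets called in either direction. Atf3, a stress-induced transcription factor, rose by 0.26 units (limma adjusted p 0.0108, 31 of 37 strains higher) and Ubl5 by 0.12 (0.0346, 25 of 37). Ddit3 was also higher, by 0.11 units (limma adjusted p 0.00762, 29 of 37). Atf5, a mammalian factor linked to this response, was lower by a difference of -0.14 units (limma adjusted p 0.00166, 10 of 37 higher), and Jun by -0.11 (0.0486, 13 of 37). Among 14 targets of the integrated stress response, which passes mitochondrial stress to amino acid and folate genes, 2 were higher and 4 lower, and the median was -0.057. Mthfd2, the mitochondrial folate enzyme, differed by -0.44 units (limma adjusted p 0.0005, 5 of 37 strains higher), Slc7a11 by -0.24 (3.95e-05, 6 of 37) and Gdf15 by -0.20 (5.37e-07, 4 of 37), whereas Psat1 rose by 0.31 (9.27e-12, 36 of 37). Slc7a11, Gdf15 and Psat1 were dim, between the 20.6 and the 45.3 percentile of mean score, and without dim probesets 3 genes of the list were called in place of 6.

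In the other mitochondrial lists the called differences were small, and Atp5o was the sole gene called lower. Of 11 further chaperones and assembly factors 4 were higher and none lower: Grpel2, a nucleotide exchange factor of Hspa9 (0.11 units, limma adjusted p 0.00801), Atpaf1 (0.10, 0.0286), Atpaf2 (0.08, 0.0121) and Hscb (0.08, 0.0109). Of 15 further proteases and partners 4 were higher: Xpnpep3 (0.17 units, limma adjusted p 5.89e-08), Oma1, a stress-activated inner membrane protease (0.12, 0.0222), Phb (0.11, 0.000228) and Htra2 (0.08, 0.00745). Of 18 import genes 3 were higher: Tomm70a (0.16 units, limma adjusted p 0.000187), Tomm6 (0.13, 0.00012) and Tomm22 (0.09, 0.00889). Medians of these lists were 0.059, 0.011 and 0.014 units. In the respiratory chain 5 of 21 genes were higher and 1 was lower, with Cyc1 at 0.13 units (limma adjusted p 0.000137), Cox5b at 0.10 (0.00338), Ndufv1 at 0.09 (0.012) and Atp5o at -0.11 (0.000149). Most genes of these lists did not pass. Of all probesets 18.9% were called higher and 38.1% in either direction.

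**Figure D5:**
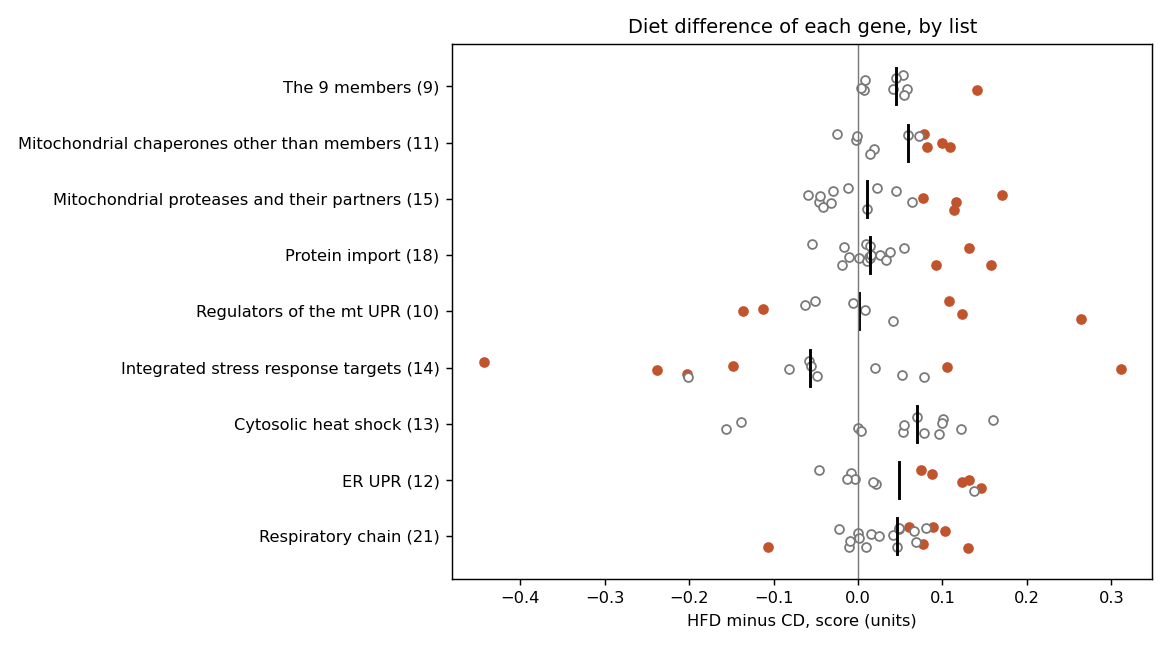
Diet difference (HFD minus CD, score units) of each gene in the 9 members and in 8 related lists; filled points had a limma adjusted p below 0.05, open points did not, the bar is the list median and the number of genes is in brackets. Called points lie on both sides of 0 for the regulators of the mitochondrial unfolded protein response, the integrated stress response targets and the respiratory chain, and to the right in the remaining lists that had any.

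Outside mitochondria, 5 of 12 genes of the endoplasmic reticulum unfolded protein response were higher in HFD, where 18.9% of all probesets were, with a median of 0.048 units. They included the transcription factor Xbp1 (0.15 units, limma adjusted p 8.5e-05), the chaperone Hspa5 (0.13, 6.16e-05), Pdia6 (0.12, 0.00171) and Calr (0.09, 0.00363), and each was higher in HFD in at least 30 of 37 strains. Of 13 cytosolic heat shock genes, whose median difference was 0.07 units, limma called 0 between diets, with 2 at an unadjusted p below 0.05. The methods' t-test called 0 as well. A replicate block for strain raised that to 5. Strain was another matter for this list: 10 of the 13 were called by the strain F test, which called 13.6% of all probesets and 30.8% of those in the members' range of mean score, led by Hspa8 (limma adjusted p 8.93e-14) and Hsph1 (1.59e-07), and 3 were called in each batch alone.

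Members were also set against the means of 4 stress lists. These 72 relations were added after the first values were seen and were adjusted together. Only 1 was called: Hspe1 followed the cytosolic heat shock list in CD at r 0.545 (rho 0.572, permutation test, adjusted p 0.0101), with 0.466 in batch 1, 0.627 in batch 2, 0.557 without BXD63 and 0.504 without the 2 farthest strains. In HFD r was 0.314 (rho 0.314, permutation test, adjusted p 0.644). Hspd1 stood at 0.245 in CD and 0.126 in HFD, and its chromosome 1 probeset at 0.339 and 0.323. In CD these values differed between batches, with 0.033 in batch 1 and 0.607 in batch 2 for Hspd1 and 0.077 and 0.705 for its chromosome 1 probeset. In batch 2 alone 4 of the 72 relations were called, and in batch 1 alone 0, with the same adjustment. For the other 3 lists r over members and diets ran from -0.272 to 0.376 with no call. For the regulators r had a different range in each batch, from -0.655 (Yme1l1) to 0.333 (Clpp) in batch 1 and from -0.033 (Clpp) to 0.692 (Clpx) in batch 2 on CD. On HFD it ran from -0.524 (Yme1l1) to 0.429 (Clpp) and from -0.054 (Hspd1) to 0.649 (Afg3l2).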

How the data were processed

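Quadriceps RNA pools were hybridised to Affymetrix Mouse Gene 1.0 ST arrays by the authors, and the submitters' processing notes name Affymetrix Expression Console. The values deposited by the authors are a score per probeset, and the log base, summarization and any batch correction are not given in the sources used here. The tests had been planned for log values and were run on the scores. All value columns were used. No read depth applies to arrays, and precision is limited by how many there were.

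limma 3.58.1 in R 4.3.3 fitted diet and batch to 79 arrays, and strain, diet and batch to 74. Calls required an adjusted p below 0.05 over 35556 probesets. Correlations used Python 3.11.15, NumPy 2.4.6, pandas 2.3.3 and SciPy 1.17.1, with two-sided permutation tests of 100000 draws. The mixture check for separate strain clusters (scikit-learn 1.9.0) found none, and matplotlib 3.10.9 drew the figures. The fits and permutation tests were tested on simulated data. Members, lists and tests were chosen with earlier results of these data known. Named were all members, the 4 called genes of each list with the largest difference, and the 3 genes most like each member. The genes named from the heat shock list, and Ddit3, were chosen after their values were seen. The strain pairing comes from the labels: deviations from the diet means correlated above 0.1 in 33 of 37 strains, with a median r of 0.214 and a lowest value of -0.136. Timm21 and Adgre1 had no probeset of that name. Alternatives changed the batch term, batches, strains, block, test, normalization, filter and probeset. Sequences are from RefSeq GRCm38.p6 promoter windows, matched by symbol. Protein sequences were not used here.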

Additional observations from a re-analysis of the deposited data

How the results depend on the processing

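The number of members called between diets stayed at 1 except in batch 1 alone, where it was 0, and with strain as a replicate block or median centred arrays, where it was 2 (Hspd1 and Spg7). The block changed no other member's call. Hspd1 kept its direction in all 15 settings, between 0.13 and 0.159 units. Estimates near 0 changed sign: Hspa9 was at -0.000592 units in batch 2 alone, Clpp at -0.00782 with repeated quantile normalization and -0.0111 with the olfactory mean as covariate, Clpx at -0.0272 with that covariate, and Yme1l1 at -0.000417 with paired strains only, -0.00661 with quantile normalization and -0.0226 with the covariate. Over all probesets, batch 1 alone called 4491 between diets, batch 2 alone 8691 and the brighter part of the probesets 5292, against 13551. Called genes per list were fewest in batch 1 alone for most lists (0 of 11 chaperones, 1 of 15 proteases, 0 of 18 import genes, 0 of 10 regulators and 1 of 21 respiratory chain genes, the last against 9 with the replicate block). For the 14 integrated stress response targets they ran from 3 without dim probesets to 9 with the block. The strain test called 3 members, against 0 with both arrays in batch 1, 1 with both in batch 2, and 5 with repeated quantile normalization, without dim probesets or with limma-trend, which added Hspe1 and Hspa9. Over all probesets it called 4820, and 2153 and 1722 within batches. The 4 parental arrays alone called 4 probesets against 447, and no member in any setting. Called pairs in CD were 16, and 7 in batch 1 alone and 2 in batch 2 alone. In HFD they were 22, and 4 and 11 in the batches, 14 with quantile normalization and 11 without the 2 strains farthest from the median. For diet differences they were 15, and 3 in each batch alone, 33 with median centring, 7 with quantile normalization and 9 without the 2 farthest strains. Cross-diet calls were 5, and 2 in each batch alone. Without BXD63, Yme1l1 with Afg3l2 in CD and Hspd1 with Afg3l2 and Hspa9 with Lonp1 in HFD lost their calls. Of the 72 relations with stress lists, 0 were called in batch 1 alone and 4 in batch 2 alone, against 1. The cause of these changes was not tested, though each batch alone holds fewer arrays.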
